A study of Mus musculus with 18 samples.

Results

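The collagen chain genes are the 42 mouse genes whose symbol is Col, a type number, a and a chain number. They were read by 82 of the 45101 probe sets on the arrays. Those with a log2 intensity of 5 or more on 2 or more of the 18 arrays were kept: 40 probe sets of 23 genes, among 18958 probe sets kept in all. The cells were mouse embryonic fibroblasts, grown from minced E12.5 to E14.5 embryos after the head, liver and blood clots had been taken off. They were homozygous or heterozygous for a mutant described as constitutively active, or wt. The design text names the mutant as TGFb1 while the title of the series places a point mutation in TGFBR1, the type I receptor of TGFb, and which of these it is was not settled here. Cells of each genotype were untreated, or were given 5 ng/mL TGF-b1 for 4 h or 24 h; how long the untreated cells were kept is not given. Each of the 9 groups had 2 arrays. No label says that these came from separate embryos or cultures, so the p-values cover only how far paired arrays scatter, which may be technical.

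Collagens are the main structural proteins of the extracellular matrix, and each is built from chains that wind into a triple helix. Types I, II, III, V, XI and XXVII form fibrils, type IV forms the sheet of basement membranes, type VI forms beaded filaments, and FACIT collagens such as types XII and XIV sit on the surface of fibrils. TGFb is the classic inducer of collagen synthesis in fibroblasts, and mutations in fibrillar collagen genes cause brittle bone or fragile connective tissue.

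The arrays were alike in overall signal, with a median linear intensity of 8.398 to 9.146 and 39.48 to 40.33% of probe sets at or above log2 5. The root mean square SD between the 2 arrays of a group was 0.195 to 0.276 log2 in mutant cells and 0.335 to 0.411 in wt cells over all kept probe sets. Over the collagen probe sets these ranges overlapped, at 0.197 to 0.283 in homozygous, 0.311 to 0.399 in heterozygous and 0.383 to 0.491 in wt cells. All 10 fibroblast markers examined were kept. Of other cell types, 9 of 11 macrophage and blood markers, 5 of 8 skeletal muscle, 3 of 6 epithelial, 3 of 6 neural and Schwann, 1 of 6 osteoblast and 1 of 6 endothelial markers were kept. In bulk RNA, fewer cells of a type and less RNA per cell cannot be told apart.

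No gene of the transmembrane class was kept. In the fibrillar class 9 of 11 genes were kept, all but Col11a2 and Col24a1. Col1a1 and Col1a2, the chains of type I collagen, ranged over the 18 arrays from 14.64 to 15.63 and from 14.98 to 15.54 log2. Col3a1, the chain of type III collagen, ranged from 14.45 to 15.34, Col5a1 from 13.77 to 14.57 and Col5a2 from 14.86 to 15.38. These probe sets lie close to the brightest value of an array, which was log2 16.27 to 16.47, and the difference that a bright probe set shows can be compressed there. Col5a3 ranged from 8.41 to 11.75, Col11a1 from 11.13 to 12.99, Col27a1 from 7.47 to 8.86 and Col2a1 from 9.72 to 11.73. Intensities of different probe sets were not set against each other, since each binds its target with its own strength.

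Among the sheet-forming type IV chains Col4a1 (14.26 to 14.84), Col4a2 (12.72 to 13.46) and Col4a5 (11.43 to 12.52) were kept, and Col4a3, Col4a4 and Col4a6 were not. The short-chain network collagens were all kept, with Col8a1 at 13.08 to 13.97, Col8a2 at 7.58 to 9.67 and Col10a1 at 4.14 to 7.49. Of the beaded filament class Col6a1 (10.34 to 12.44), Col6a2 (9.24 to 11.63) and Col6a3 (10.08 to 11.87) were kept, and Col6a4, Col6a5 and Col26a1 were not. Col7a1, the chain of the anchoring fibrils that tie epithelial basement membrane to the tissue under it, ranged from 8.62 to 11.32. Of 9 FACIT genes Col12a1 (12.74 to 13.82), Col14a1 (6.72 to 8.81) and Col16a1 (9.85 to 10.68) were kept. Col18a1, from which endostatin is cut, was kept at 8.25 to 9.66, and Col15a1, the other multiplexin, was not.

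The 42 probe sets that were not kept had no array at log2 5 or above. The nearest below it were Col9a3, with a highest value of 4.75, Col15a1 with 4.25 and Col24a1 with 3.99. Just inside the limit were a dimmer Col27a1 probe set (1429549_at), at or above 5 in 10 arrays, and Col10a1, at or above 5 in 15 arrays. Col2a1 was well above the limit although it is the fibrillar collagen of cartilage. Of 7 chondrocyte markers only Sox9, a cartilage transcription factor also made by other cells, was kept. Acan, Matn1, Comp, Hapln1 and Cnmd did not exceed 3.39 in any array, and Matn3 did not exceed 4.90.

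The largest collagen change was the rise of Col5a3 after 24 h of TGFb. Col5a3 encodes a minor chain of type V collagen, which helps to start and limit the width of type I fibrils. In homozygous cells its 2 arrays were at 11.42 and 11.75 log2 with 24 h of TGFb, against 9.55 and 9.43 untreated. In heterozygous cells they were at 11.57 and 11.09, against 9.43 and 8.65 untreated, and in wt cells at 10.43 and 11.33, against 8.71 and 8.41 untreated. The treated arrays lay above the untreated ones in every genotype. The rise was 2.09 ± 0.32 log2 (SE), or 4.26-fold, in homozygous cells (limma, adjusted p = 0.0017), 4.87-fold in heterozygous cells (adjusted p = 0.00109) and 4.99-fold in wt cells (adjusted p = 0.000757). At 4 h the differences from untreated were 0.27, 0.56 and 0.62 log2 in homozygous, heterozygous and wt cells, and none was called. No other type V chain passed the test at 24 h: the differences of Col5a1 were 0.02, 0.11 and 0.27, and those of Col5a2 0.03, 0.05 and 0.15.

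Col7a1 followed the same course with smaller changes. In homozygous cells it was at 10.92 and 11.32 with 24 h of TGFb, against 9.72 and 9.72 untreated. In heterozygous cells it was at 10.97 and 10.49, against 9.61 and 8.76 untreated, and in wt cells at 10.46 and 10.31, against 8.62 and 9.06 untreated. Again no treated array overlapped the untreated ones. The rise was 2.63-fold in homozygous cells (limma, adjusted p = 0.012), 2.92-fold in heterozygous cells (adjusted p = 0.00825) and 2.92-fold in wt cells (adjusted p = 0.00601). The 4 h differences were -0.05, 0.37 and 0.24 log2 and none was called. The homozygous call was lost without untreated replicate 1, without untreated replicate 2 or without 24 h replicate 2, and the heterozygous call without untreated replicate 2 or 24 h replicate 1.

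The promoter windows of these 2 genes are printed because their transcripts rose together at 24 h. They come from RefSeq on build GRCm38.p6 and hold 250 bases before and 50 after the annotated start, read in the direction of the gene. Capitals mark the letters CAGAC, a core that Smad proteins (the TGFb signal transducers) bind, on either strand (CAGAC or GTCTG), and TGANTCA, the letters of an AP-1 site. Col5a3 lies at chr9:20815018-20815317 on the minus strand and Col7a1 at chr9:108953336-108953635 on the plus strand.
Col5a3: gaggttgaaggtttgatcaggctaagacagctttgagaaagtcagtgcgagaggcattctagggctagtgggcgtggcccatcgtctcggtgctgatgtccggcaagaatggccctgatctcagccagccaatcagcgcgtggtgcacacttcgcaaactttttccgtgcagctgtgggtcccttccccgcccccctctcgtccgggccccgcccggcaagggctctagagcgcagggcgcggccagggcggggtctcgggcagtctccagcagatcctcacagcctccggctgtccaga
Col7a1: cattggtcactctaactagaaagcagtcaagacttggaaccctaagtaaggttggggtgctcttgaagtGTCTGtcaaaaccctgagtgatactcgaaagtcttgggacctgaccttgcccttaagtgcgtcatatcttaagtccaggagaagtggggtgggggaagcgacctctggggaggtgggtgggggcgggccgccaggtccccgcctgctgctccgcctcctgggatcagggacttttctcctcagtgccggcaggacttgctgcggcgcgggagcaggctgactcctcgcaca

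The Col7a1 window held 1 CAGAC and the Col5a3 window none, and neither held TGANTCA. These letters are common: CAGAC stood in 49.6% of 32851 promoter windows of the same length and TGANTCA in 7.81%. Of the 20 windows of kept collagen genes that matched, 11 held CAGAC and 1 held TGANTCA. A match is only a description of the letters in the window.

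Col27a1, a fibrillar collagen of cartilage and other developing tissues, was the collagen gene called higher at 4 h. In homozygous cells it was at 8.47 and 8.67 with 4 h of TGFb, against 7.57 and 7.82 untreated. In heterozygous cells it was at 8.86 and 8.27, against 7.85 and 7.52 untreated, and in wt cells at 8.31 and 8.70, against 7.53 and 7.47 untreated. The groups did not overlap in any genotype. The rise was 0.87 ± 0.21 log2 (SE), or 1.83-fold, in homozygous cells (limma, adjusted p = 0.00795), 1.84-fold in heterozygous cells (adjusted p = 0.0102) and 2.01-fold in wt cells (adjusted p = 0.00834). At 24 h it was still higher in homozygous cells, by 0.79 (adjusted p = 0.0465), and in wt cells, by 0.81 (adjusted p = 0.0327), while the heterozygous difference of 0.74 was not called (adjusted p = 0.0737). The dimmer Col27a1 probe set (1429549_at) was below log2 5 on all 6 untreated arrays, at 3.99 to 4.78, and was kept only through treated arrays, so its higher values with TGFb lend the rise no support. Each 24 h call was lost when any 1 of its 4 arrays was left out. The 4 h calls were lost without homozygous untreated replicate 1 or homozygous 4 h replicate 2, without heterozygous untreated replicate 2 or heterozygous 4 h replicate 1, and without wt 4 h replicate 2.

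**Figure D1:**
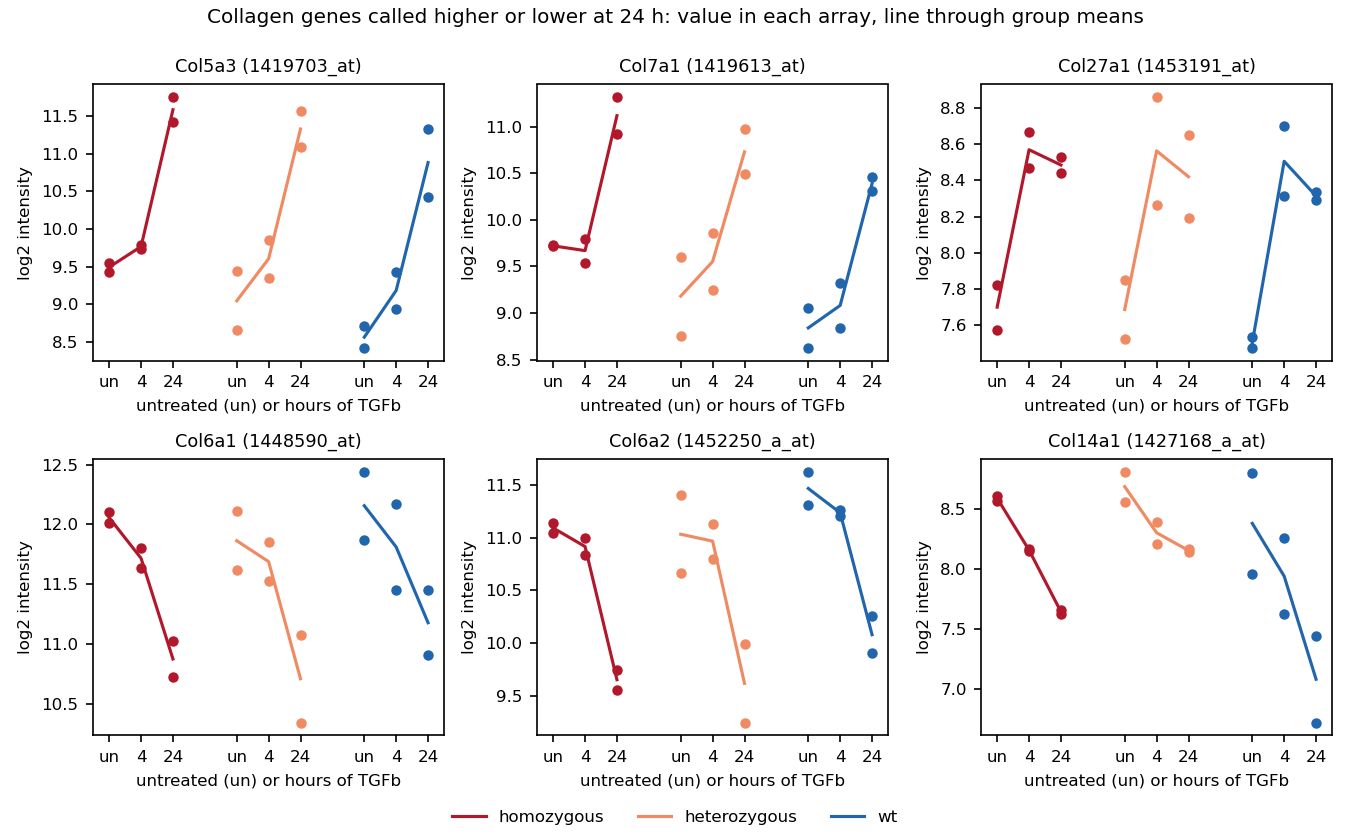
Log2 intensity of collagen genes called at 24 h, or at both times, by untreated cells (un) and hours of TGFb, in homozygous, heterozygous and wt cells; points are arrays and lines join group means. In each genotype the Col5a3 arrays at 24 h lie above the untreated ones, by 4.26-fold to 4.99-fold, and the Col6a2 arrays below them.

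Of the chains of type VI collagen, Col6a2 fell at 24 h in all 3 genotypes and Col6a1 in both mutants, and Col6a3 was not called; whether the chains differed from each other was not tested. Type VI collagen is a pericellular filament usually built from 1 chain of each kind, and mutations in any of the 3 cause muscular dystrophies. Col6a2 was at 9.55 and 9.75 in homozygous cells with 24 h of TGFb, against 11.04 and 11.14 untreated. It was at 9.99 and 9.24 in treated heterozygous cells, against 11.40 and 10.66 untreated, and at 10.26 and 9.90 in treated wt cells, against 11.31 and 11.63 untreated. No treated array reached an untreated one of its genotype. The fall was 2.72-fold in homozygous cells (limma, adjusted p = 0.00463), 2.67-fold in heterozygous cells (adjusted p = 0.00616) and 2.62-fold in wt cells (adjusted p = 0.00529). The second Col6a2 probe set, of a design that may bind related transcripts, differed by -1.92, -1.77 and -1.30 log2, and of these the homozygous value was called. The Col6a2 call was lost without homozygous 24 h replicate 1, without heterozygous untreated replicate 1 or heterozygous 24 h replicate 2, and without wt 24 h replicate 2.

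Col6a1 was at 10.73 and 11.02 in homozygous cells with 24 h of TGFb, against 12.10 and 12.01 untreated. It was at 11.08 and 10.34 in treated heterozygous cells, against 12.11 and 11.62 untreated, and at 11.45 and 10.91 in treated wt cells, against 11.87 and 12.44 untreated. The groups did not overlap. Col6a1 fell 2.27-fold in homozygous cells (limma, adjusted p = 0.0333) and 2.22-fold in heterozygous cells (adjusted p = 0.0444), and the 1.97-fold lower value in wt cells was not called (adjusted p = 0.0609). The homozygous call was lost when any 1 of its 4 arrays was left out, and the heterozygous call without untreated replicate 1, untreated replicate 2 or 24 h replicate 2. Col6a3, whose chain is the longest of the 3, differed by -0.32 ± 0.46 log2 (SE) in homozygous cells, 0.06 in heterozygous cells and 0.14 in wt cells, and its arrays overlapped in the heterozygous and wt comparisons. At 4 h none of the 3 was called in any genotype. The differences of their brightest probe sets ran from -0.88 (Col6a3 in homozygous cells) to -0.07. The second Col6a2 probe set was higher by 0.22 in heterozygous cells at 4 h, without a call.

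Col6a1 and Col6a2 are neighbours on chromosome 10 in GRCm38.p6, while Col6a3 lies on chromosome 1. Their promoter windows are printed because both of these neighbouring genes were called lower in both mutants, with capitals as above. Col6a1 lies at chr10:76725995-76726294 and Col6a2 at chr10:76623355-76623654, both on the minus strand. The Col6a1 window was the only one among the 20 to hold TGANTCA, and the Col6a2 window shown held neither motif. RefSeq gives Col6a2 a second start, whose window held 1 CAGAC.
Col6a1: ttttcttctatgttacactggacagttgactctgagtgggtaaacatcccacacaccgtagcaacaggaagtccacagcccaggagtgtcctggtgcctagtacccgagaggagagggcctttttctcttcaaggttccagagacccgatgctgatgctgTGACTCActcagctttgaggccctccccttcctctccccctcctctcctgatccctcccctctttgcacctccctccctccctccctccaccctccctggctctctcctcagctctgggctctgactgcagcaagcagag
Col6a2: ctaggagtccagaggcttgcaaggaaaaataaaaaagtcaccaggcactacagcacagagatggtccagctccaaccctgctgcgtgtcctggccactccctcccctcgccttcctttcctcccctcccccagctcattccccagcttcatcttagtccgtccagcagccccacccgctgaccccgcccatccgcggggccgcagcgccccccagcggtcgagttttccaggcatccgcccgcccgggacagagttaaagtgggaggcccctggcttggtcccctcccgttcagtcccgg

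Col14a1, a FACIT collagen of tendon and skin, was lower at 24 h. In wt cells it was at 6.72 and 7.44 with 24 h of TGFb, against 8.79 and 7.96 untreated, and the groups did not overlap. The fall was 2.46-fold (limma, adjusted p = 0.0123), and it was lost without untreated replicate 1 or 24 h replicate 1. In homozygous cells it was at 7.66 and 7.63, against 8.61 and 8.57 untreated, a difference of -0.94 ± 0.28 log2 (SE) that was not called (adjusted p = 0.0666). In heterozygous cells the difference was -0.53, not called (adjusted p = 0.412). The dimmer Col14a1 probe set, at 5.18 to 6.57, was called lower at 24 h in homozygous cells (-0.87, adjusted p = 0.0106) and wt cells (-0.67, adjusted p = 0.034).

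Counted over the 40 kept probe sets at 24 h, 3 were called higher and 4 lower in homozygous cells, against 2.25% higher and 4.18% lower among all 18958 probe sets. In heterozygous cells 2 were called higher and 2 lower (background 2.24% and 2.84%), and in wt cells 3 and 3 (background 4.11% and 5.03%). As shares of the 40, the homozygous counts are 7.5% and 10%, and 1 probe set is 2.5% of the 40. The median 24 h difference over the 40 was -0.03 log2 in homozygous cells, 0.07 in heterozygous cells and 0.14 in wt cells, beside -0.03, 0.01 and -0.02 over all probe sets. Over the 10 fibroblast markers it was -0.71, -0.57 and -0.49, with 3, 1 and 3 called lower and none higher. The part of these markers in the collagen result was not tested. Leaving out 1 array gave 3 calls (without untreated replicate 1) or 2 (without any of the other 3 arrays) in homozygous cells, and 2 in heterozygous cells without either untreated array. In wt cells it gave 10 calls without untreated replicate 1 and 3 without 24 h replicate 2, and 0 when the fit held only the wt groups compared.

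At 4 h most collagen probe sets were lower with TGFb, and the calls were most frequent in homozygous cells. There 18 of the 40 were called lower and 2 higher, against 17.6% lower and 17.4% higher among all probe sets. The 18 belonged to 10 genes, which were Col1a1, Col1a2, Col3a1, Col5a1, Col11a1, Col4a1, Col4a2, Col4a5, Col12a1 and Col14a1, and the 2 higher ones were both Col27a1, 1 of them the dimmer probe set that only treated arrays had carried past the filter. In heterozygous cells 6 were called lower and 2 higher, the same Col27a1 pair (background 12.7% and 13.8%), and in wt cells 2 lower and 1 higher (background 9.48% and 7.64%). In sign alone 36, 32 and 33 of the 40 were lower in homozygous, heterozygous and wt cells. The median difference was -0.44, -0.25 and -0.23 log2, beside -0.003, 0.003 and -0.04 over all probe sets. The heterozygous and wt shares of lower calls thus lay near their backgrounds, and the homozygous share of 45% lay above it.

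These counts rest on 2 arrays a group, and for the refits below the share of all probe sets called is not given. In homozygous cells, 20 calls became 10 without untreated replicate 1, 6 without untreated replicate 2, 6 without 4 h replicate 1 and 10 without 4 h replicate 2. In heterozygous cells 8 became 5 and 1 without untreated replicates 1 and 2, and 2 and 4 without 4 h replicates 1 and 2. In wt cells 3 became 14 without untreated replicate 2, and 0 when only the wt groups compared were fitted. Markers of cell types were read beside these counts. The summed linear intensity of the 10 fibroblast markers was 76680 and 77660 in homozygous cells at 4 h, against 92170 to 93450 untreated, 80110 to 81860 against 90540 to 91050 in heterozygous cells, and 83840 to 95370 against 87020 to 98260 in wt cells. Their median change was near 0 (-0.09, 0.01 and -0.08 log2), while 5, 4 and 2 of the 10 were called lower in homozygous, heterozygous and wt cells, with Pdgfra at -2.89 log2 in homozygous cells. The sum over markers of each other cell type was higher at 4 h in homozygous cells, without overlap. The osteoblast sum was 53.74 to 82.62 there, against 27.26 to 27.38 untreated. Dmp1, the only osteoblast marker kept, was called higher in homozygous (2.37 log2) and heterozygous cells (1.95). The skeletal muscle sum was 1491 to 1542 against 1084 to 1160, and the endothelial sum 585.8 to 737.2 against 398.6 to 536.9. These skeletal muscle and endothelial sums overlapped with untreated in the other genotypes. The neural and Schwann sum was 2275 to 2289 in homozygous cells, against 1183 to 1260 untreated. It was 2310 to 2473 against 1091 to 1121 in heterozygous cells, and 1910 to 2287 against 1278 to 1378 in wt cells. Nes was called higher in all 3 genotypes and Sox10 and Tubb3 in none. The epithelial sum was 2056 to 3061 in homozygous cells, against 953.5 to 1173 untreated, and 2426 to 3572 against 1075 to 1894 in heterozygous cells. In wt cells it was 1187 to 2149 against 631.5 to 1397, which overlapped. No epithelial marker was called at 4 h, and Krt5, Krt14 and Cdh1 were dim throughout. The macrophage and blood sum was 11600 to 11640 in homozygous cells, against 8367 to 9073 untreated. It overlapped with untreated in heterozygous (14000 to 17200 against 11580 to 15040) and wt cells (1579 to 5786 against 1505 to 3586). Sox9, the only chondrocyte marker kept, was called higher in homozygous, heterozygous and wt cells (0.89, 1.25 and 1.05 log2). The part of these in the collagen result was not tested.

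**Figure D2:**
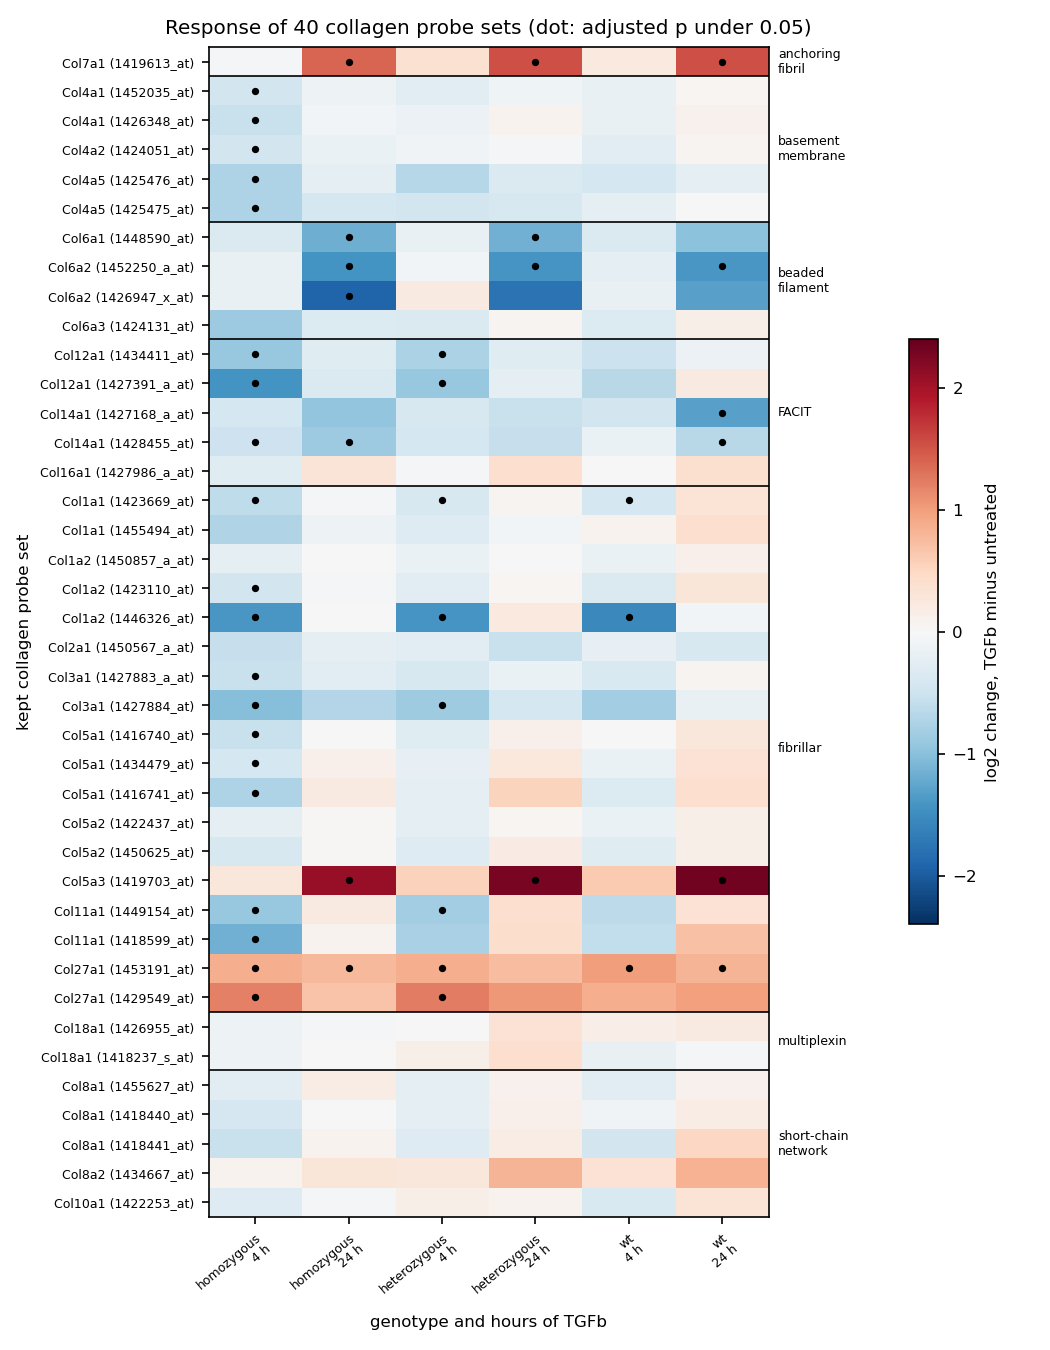
Log2 change with TGFb against untreated cells (colour) for the 40 kept collagen probe sets, by class, in homozygous, heterozygous and wt cells at 4 h and 24 h; a dot marks a limma adjusted p under 0.05. Homozygous cells at 4 h carry 20 dots, 18 of them on lower values, and Col5a3 and Col7a1 stand out at 24 h in each genotype.

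Col1a1 was the 1 gene whose brightest probe set was called lower at 4 h in all 3 genotypes. In homozygous cells it was at 14.89 and 15.11 with 4 h of TGFb, against 15.60 and 15.62 untreated. In heterozygous cells it was at 15.03 and 15.09, against 15.49 and 15.38 untreated, and in wt cells at 14.89 and 14.64, against 15.34 and 15.02 untreated. The groups did not overlap. The fall was 1.53-fold in homozygous cells (limma, adjusted p = 0.0013), 1.30-fold in heterozygous cells (adjusted p = 0.0228) and 1.33-fold in wt cells (adjusted p = 0.0222). The homozygous call held when any array was left out, the heterozygous one was lost with each of the 4, and the wt one was lost without untreated replicate 1 or 4 h replicate 2. At 24 h Col1a1 differed from untreated by -0.03, 0.07 and 0.32, none of them called. The dimmer Col1a1 probe set (1455494_at) was not called at 4 h and differed by -0.71, -0.30 and 0.09.

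Type I collagen needs Col1a2 as well, and its 3 probe sets did not give 1 size. The brightest (1450857_a_at) differed by -0.23, -0.17 and -0.15 log2 at 4 h in homozygous, heterozygous and wt cells, and was not called. The second (1423110_at) was called lower in homozygous cells, by 0.44. The dimmest (1446326_at), singled out after its values were seen, was at 6.50 and 7.03 in homozygous cells at 4 h, against 8.14 and 8.19 untreated, and fell by 1.40 (limma, adjusted p = 0.0036). It fell by 1.42 in heterozygous cells and 1.54 in wt cells, and all 3 values were near 0 again at 24 h (-0.01, 0.23 and -0.07). Whether this probe set reads the same transcript as the others was not tested.

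Col12a1, the FACIT chain of fascia and ligament, was lower at 4 h in both mutants. In homozygous cells it was at 12.75 and 12.74 with 4 h of TGFb, against 13.62 and 13.66 untreated. In heterozygous cells it was at 12.85 and 12.84, against 13.57 and 13.65 untreated, and in wt cells at 12.96 and 13.04, against 13.82 and 13.19 untreated. The groups did not overlap in any genotype. The fall was 1.87-fold in homozygous cells (limma, adjusted p = 0.0024) and 1.70-fold in heterozygous cells (adjusted p = 0.00807), and the wt value, 1.42-fold lower, was not called (adjusted p = 0.0669). The homozygous call held when any 1 array was left out, and the heterozygous call was lost without untreated replicate 2. The second probe set was also called lower in both mutants, by -1.44 and -0.90 log2.

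Col11a1, which nucleates the thin fibrils of cartilage, followed the same pattern. In homozygous cells it was at 11.80 and 11.79 with 4 h of TGFb, against 12.61 and 12.81 untreated, a 1.89-fold fall (limma, adjusted p = 0.0165). In heterozygous cells it was at 11.43 and 11.53, against 12.09 and 12.54 untreated, a 1.79-fold fall (adjusted p = 0.0319). In wt cells it was at 11.13 and 11.60, against 12.42 and 11.57 untreated, and these groups overlapped (-0.63 ± 0.26 log2, SE, adjusted p = 0.112). Both calls were lost without untreated replicate 2, 4 h replicate 1 or 4 h replicate 2 of the genotype.

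Other falls at 4 h were called in homozygous cells alone, which does not show that the genotypes differ. Col3a1, which co-assembles with type I in skin and vessels, was at 14.66 and 14.88 there, against 15.25 and 15.34 untreated (-0.53 ± 0.14 log2, SE, adjusted p = 0.0108). Col5a1, the main type V chain, was at 13.94 and 13.99, against 14.48 and 14.53 untreated (-0.54 ± 0.14, adjusted p = 0.00939), and its 2 other probe sets were called too. Both calls were lost without untreated replicate 2 or 4 h replicate 1. The corresponding differences were -0.39 and -0.36 for Col3a1 and -0.28 and -0.02 for Col5a1 in heterozygous and wt cells. The dimmer Col3a1 probe set (1427884_at) was called lower in heterozygous cells as well, by -0.86.

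All 5 kept type IV probe sets were called lower at 4 h in homozygous cells, where 17.6% of all probe sets were. Col4a1 and Col4a2, which make up most basement membrane type IV collagen, differed there by -0.44 each. Col4a5, a chain of kidney and eye basement membranes, was at 11.43 and 11.52, against 12.19 and 12.24 untreated (-0.74 ± 0.26 log2, SE, limma adjusted p = 0.0438). That call was lost when any 1 of its 4 arrays was left out. Against untreated cells no type IV probe set was called in the other genotypes or at 24 h, where the differences of the brightest probe sets ran from -0.34 to 0.06. The second Col4a1 probe set was called higher at 24 h than at 4 h in homozygous cells (0.45). Col4a1 and Col4a2 stand head to head on chromosome 8 in GRCm38.p6, and their 300-base promoter windows share 78 bases.

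**Figure D3:**
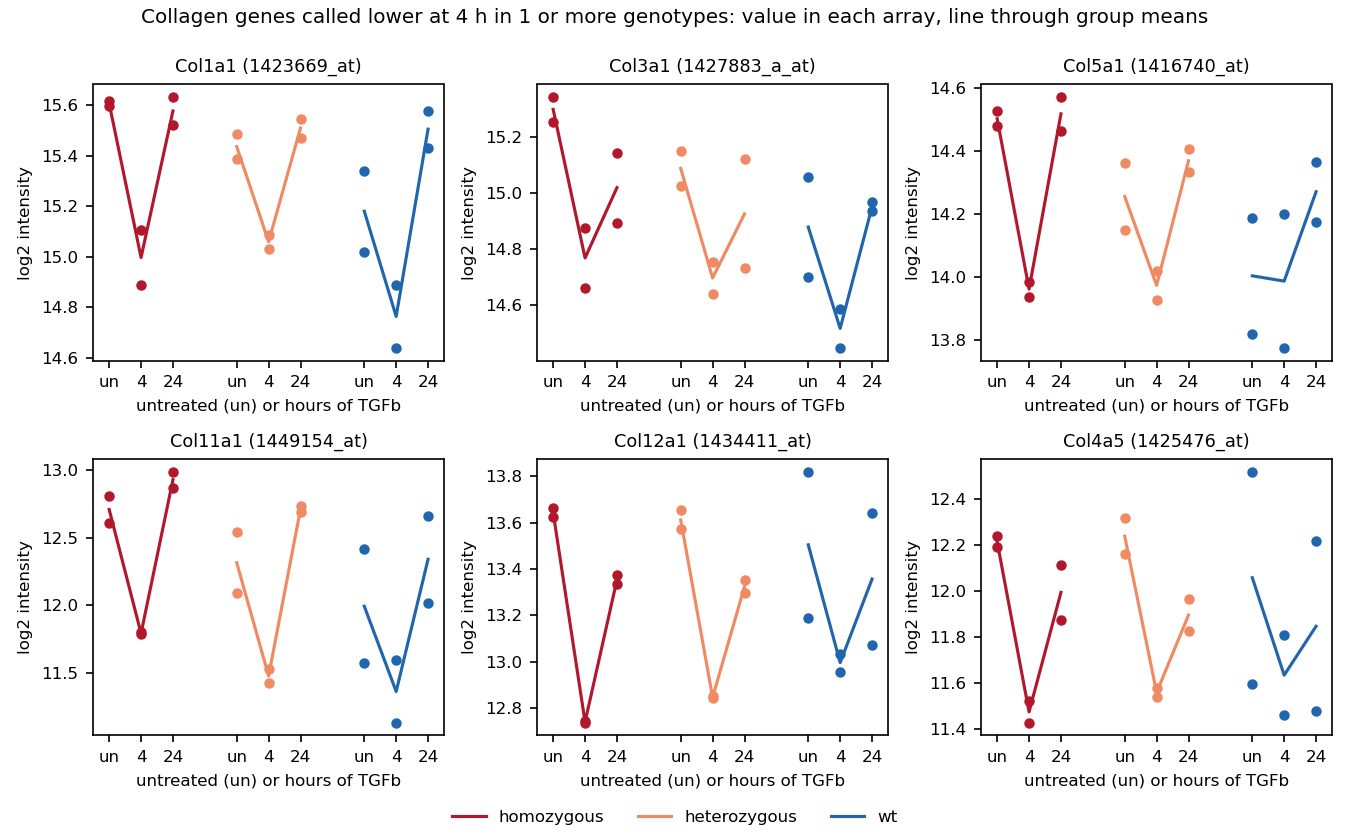
Log2 intensity of 6 collagen genes called lower at 4 h in at least 1 genotype, by untreated cells (un) and hours of TGFb; points are arrays and lines join group means, and the axes do not start at 0. In homozygous cells both 4 h arrays lie below both untreated arrays for every gene shown.

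Between 4 h and 24 h of TGFb most collagen calls were upward. In homozygous cells 17 of the 40 probe sets were called between 24 h and 4 h (background 33.3%), 14 of them higher at 24 h (background 14.4%). In heterozygous cells 14 were called (background 29.1%), 11 of them higher (background 14.1%), and in wt cells 15 (background 32.5%), 12 of them higher (background 16.7%). The median difference was 0.40, 0.34 and 0.34 log2, beside -0.03, -0.01 and 0.01 over all probe sets. The 4 h arrays enter both this comparison and the 4 h response, so the 2 sets of values are not independent. The probe sets called lower were all of Col6a1, Col6a2 or Col14a1.

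Fibrillar chains made up most of the upward calls. Of the 18 fibrillar probe sets 9, 10 and 10 were called higher in homozygous, heterozygous and wt cells, and none lower. Col11a1 was at 12.87 and 12.99 in homozygous cells at 24 h, against 11.80 and 11.79 at 4 h (2.20-fold, limma adjusted p = 0.00598), and rose 2.35-fold in heterozygous and 1.97-fold in wt cells. Col1a1 rose between these times by 0.58, 0.45 and 0.74 log2 (adjusted p = 0.00204, 0.00902 and 0.000708). Col5a2 rose by 0.27, 0.26 and 0.30, and Col16a1, a FACIT chain, was called in homozygous cells (0.59). Leaving out 1 array moved the homozygous count of 17 to 7 (without 4 h replicate 1), 11 (without 4 h replicate 2) or 10 (without 24 h replicate 2). The heterozygous count of 14 became 6 or 8 without 4 h replicate 1 or 2, and 7 without either 24 h array. The wt count of 15 became 7 without 24 h replicate 2, and 0 when only the wt groups compared were fitted.

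**Figure D4:**
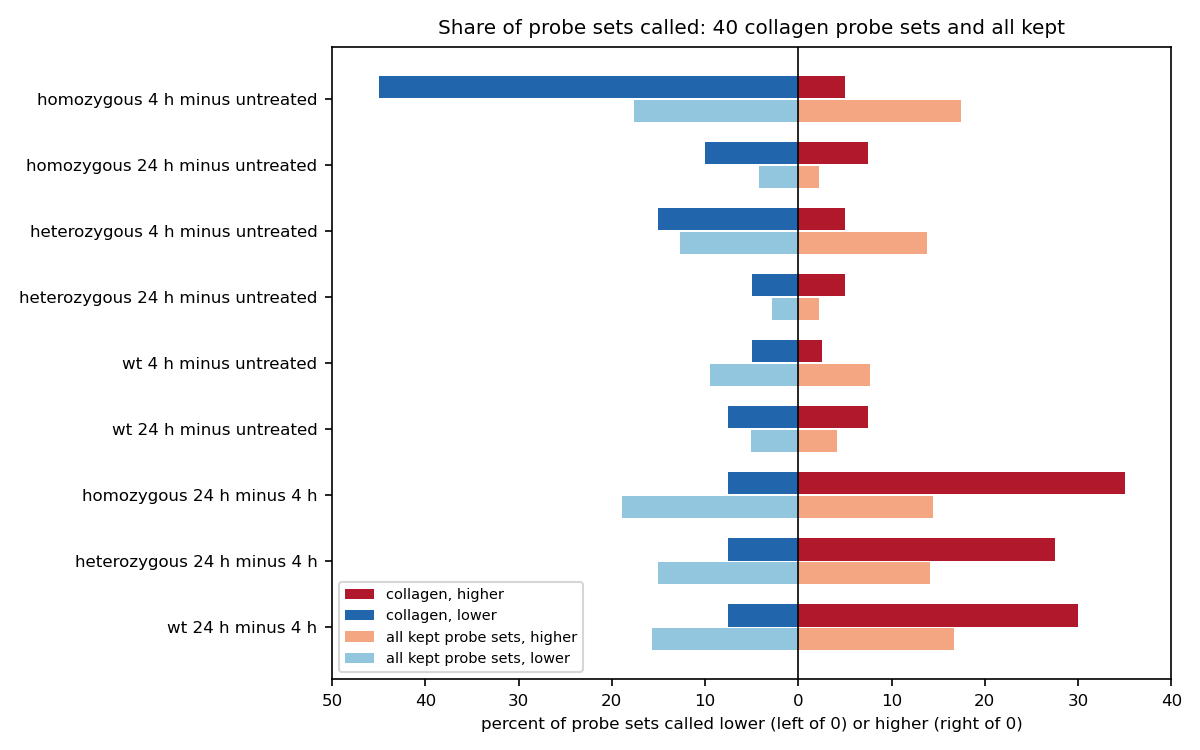
Percent of probe sets called higher or lower (limma, adjusted p under 0.05) among the 40 kept collagen probe sets and among all 18958. For homozygous cells at 4 h the collagen share called lower is 45% against 17.6% of all. Between 4 h and 24 h the collagen share called higher is 35%, 27.5% and 30% in homozygous, heterozygous and wt cells. Among all probe sets that share is 14.4%, 14.1% and 16.7%. Each collagen probe set is 2.5% of the 40, which weighs heavily where few were called.

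A few kept genes were called in no comparison. Col2a1, at 11.04 and 11.36 in homozygous cells with 24 h of TGFb, against 11.43 and 11.45 untreated, differed from untreated cells by -0.56 to -0.20 log2 over the 6 responses. Col8a1 and Col8a2, made by endothelium and smooth muscle, differed from untreated by -0.26 to 0.18 and 0.09 to 0.84. The Col8a1 range is that of its brightest probe set, and over its 3 probe sets the differences ran from -0.53 to 0.49. Col8a2 at 24 h was higher by 0.82 in heterozygous cells (adjusted p = 0.276) and 0.84 in wt cells (adjusted p = 0.17), with treated arrays above untreated ones in both. The 2 probe sets of Col18a1 stayed between -0.18 and 0.41. Col10a1, the collagen of hypertrophic cartilage, had arrays far apart within some groups, at 5.55 and 7.11 in untreated homozygous cells and 4.57 and 6.77 in untreated wt cells, and close in others, at 6.47 and 6.86 in untreated heterozygous cells.

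Untreated cells of the 3 genotypes were compared to see whether the mutant alone went with other collagen levels. No collagen probe set was called by limma in homozygous against wt cells (background 0.744%), and 20 of 40 (50%) had an unadjusted p under 0.05, against 16.6% of all probe sets. In sign 36 of 40 were higher in homozygous cells, with a median of 0.42 log2, beside -0.005 over all probe sets. The smallest adjusted p was 0.0826, for Col1a1, which was at 15.60 and 15.62 in homozygous cells, against 15.34 and 15.02 in wt cells (0.43 ± 0.11 log2, SE). Col8a2 (0.95), Col5a3 (0.93) and Col7a1 (0.88) had the widest gaps among genes with an unadjusted p under 0.05, and the 3 type VI genes were lower (-0.10, -0.38 and -0.24 for Col6a1, Col6a2 and Col6a3). Some calls appeared without wt untreated replicate 1, all higher in homozygous cells. The share of all probe sets called in that refit is not given. In heterozygous against wt cells none was called (background 0.586%), 2 (5%) had an unadjusted p under 0.05, against 9.03% of all, and 33 of 40 were higher, with a median of 0.21. Some calls appeared there too without wt untreated replicate 1, again with no share over all probe sets given.

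Markers of other cell types also differed between these genotypes. The summed linear intensity of the 10 macrophage and blood markers on the array, 9 of them kept, was 8367 to 9073 in untreated homozygous cells and 11580 to 15040 in heterozygous cells, against 1505 to 3586 in wt cells. Of these Fcer1g and Laptm5 were called higher in heterozygous cells and none in homozygous cells, and Hba-a1 was dim throughout. The 8 skeletal muscle markers, 5 of them kept, summed to 1084 to 1160 in homozygous and 1189 to 1614 in heterozygous cells, against 3367 to 3474 in wt cells, with none called and Myod1, Myf5 and Tnnt3 dim. Of the 10 fibroblast markers, S100a4 was called lower in homozygous cells (-1.5 log2) and none was called in heterozygous cells. The part of these markers in the collagen differences was not tested.

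Whether the mutant changed the response to TGFb was asked with 4 interaction terms, the mutant response minus the wt response at each time. None was called among the collagens, nor among all 18958 probe sets (background 0%). In limma 2 collagen probe sets (5%) had an unadjusted p under 0.05 for homozygous cells at 4 h, against 8% of all probe sets, 1 for homozygous cells at 24 h, and 0 for heterozygous cells at either time. The 2 at 4 h were a Col5a1 probe set (-0.52 ± 0.19 log2, SE, adjusted p = 0.567) and the second Col12a1 probe set (-0.78 ± 0.35, adjusted p = 0.622), and the 1 at 24 h was Col1a1 (-0.35 ± 0.15, adjusted p = 0.796). In sign 32 of 40 terms were negative for homozygous cells at 4 h and 35 of 40 at 24 h. Their medians were -0.26 and -0.20 log2, beside 0.04 and -0.007 over all probe sets. For heterozygous cells 24 and 29 were negative, with medians of -0.03 and -0.09, beside 0.045 and 0.03. Both times share the untreated arrays, so their terms are not independent. The same arrays gave the comparison of untreated genotypes, where 36 of 40 were higher in homozygous cells. The interaction terms subtract that difference, so the lean there and the lean here are not independent. Several of the 40 also read the same gene, and this lean in sign was not tested. For Col5a3 at 24 h the interaction was -0.23 ± 0.45 in homozygous and -0.04 ± 0.45 in heterozygous cells, with standard errors larger than the differences themselves. Without wt 4 h replicate 1, 1 probe set was called at 4 h for each mutant, and 1 for homozygous cells without wt untreated replicate 1.

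Genes that build, bind and break down collagen were read beside the chains, from lists chosen with results of these data known. Most of the list counts below are a few genes, to be read against the shares of all probe sets given above, which were 2.24% to 5.03% in a direction at 24 h and 7.64% to 17.6% at 4 h. Of 20 genes of procollagen hydroxylation, folding and secretion 18 were measured. Serpinh1, the collagen chaperone, and Lox, the cross-linking oxidase, were singled out after their values were seen: they differed by -0.15 to 0.01 and by -0.19 to 0.16 log2 over the 6 responses, with no call. Plod2, which hydroxylates lysines for cross-links, fell by 0.62 log2 at 4 h in homozygous cells (limma, adjusted p = 0.00885) and rose at 24 h in heterozygous (0.59, adjusted p = 0.0493) and wt cells (1.15, adjusted p = 0.000713). The list counts at 24 h were 1 higher and 1 lower in homozygous, 2 and 0 in heterozygous and 2 and 0 in wt cells, and at 4 h 1 and 3, 1 and 0, and 0 and 0. P3h1, a prolyl 3-hydroxylase, was higher in heterozygous cells at 4 h (0.32) and 24 h (0.60) and in homozygous cells at 24 h (0.46), where its partner Crtap was lower (-0.35). Creb3l1, a transcription factor of secretory cells, was higher in wt cells at 24 h (0.72), and at 4 h in homozygous cells Mia3, which loads procollagen for export, was lower (-0.40) and Ppib, a prolyl isomerase, higher (0.29).

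Of 19 genes of procollagen cleavage, cross-linking and fibril assembly 14 were measured. Bmp1, which removes the C-terminal propeptide, rose at 24 h in heterozygous (0.47, adjusted p = 0.0332) and wt cells (0.65, adjusted p = 0.00416), and differed by 0.34 in homozygous cells without a call. Pcolce, the enhancer of that cleavage, fell at 24 h in all 3 genotypes, by 0.32, 0.30 and 0.45 in homozygous, heterozygous and wt cells. At 4 h 1 gene of the list was higher and 3 lower in homozygous cells, 0 and 1 in heterozygous and 1 and 0 in wt cells. These were Pcolce2 (1.02) higher and Loxl4 (-0.73) and Fn1 (-0.34), a matrix glycoprotein, among those lower in homozygous cells, Fn1 (-0.23) in heterozygous cells and Bmp1 (0.36) in wt cells.

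Among 6 measured collagen receptors of 9, Ddr2, a receptor tyrosine kinase for fibrillar collagen, fell at 4 h by 0.99 in homozygous, 0.89 in heterozygous and 0.86 in wt cells (limma, adjusted p = 0.000178, 0.000518 and 0.00108). At 24 h it differed by -0.43, -0.30 and -0.28, not called. Ddr1, the related kinase, was higher at 4 h in wt cells (0.62). Mrc2, which takes up collagen fragments, was called lower at 4 h in homozygous cells (-0.70), higher at 24 h in wt cells (0.53) and was 1 of 2 genes of these lists called in untreated homozygous against wt cells (0.79). Of 9 measured genes of collagen degradation, 3 were higher at 4 h in each genotype, Mmp9 (a gelatinase), Timp1 and Timp3 (inhibitors of matrix proteases), and 1 was lower, in homozygous cells. Mmp9 was higher at 24 h by 2.12, 2.00 and 2.86 in homozygous, heterozygous and wt cells (adjusted p = 0.00231, 0.00396 and 0.000263). Mmp2, another gelatinase, was the other gene called in untreated homozygous against wt cells (0.64, adjusted p = 0.0385).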

How the data were processed

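RNA was measured on 18 Affymetrix mouse arrays. The deposited values are GCRMA intensities on a linear scale, made by the authors with GCRMA (which corrects background, normalizes and summarises each probe set; named in the submitters' processing notes, version not given). No scan date or batch is given in the sources used here. Arrays give intensities, so there was no read depth to report.

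The deposited intensities were converted to log2 with no further normalization. Genes were named from the platform annotation, in which 34945 probe sets had 1 symbol, 932 several and 9160 none, and 34741 matched a RefSeq gene. Probe sets with log2 of at least 5 in at least 2 arrays were kept (18958). In R 4.3.3 with limma 3.58.1, all 18 arrays entered 1 model with 9 group means, leaving 9 residual degrees of freedom, with eBayes and an intensity trend. Two-sided p-values received a Benjamini-Hochberg adjustment over the 18958 probe sets in each of 15 comparisons. A probe set was called at an adjusted p under 0.05. A gene was represented by its brightest kept probe set. All kept genes were named by range. The 12 genes given by array were those whose brightest probe set was called with a change of at least 0.5 log2 in a response or genotype comparison (at most 16). Of each pathway list, up to 3 called genes with the largest changes were named per comparison. The scripts were tested on simulated data. Members, lists and tests were chosen with earlier results of these data known. Promoter sequences are RefSeq's (GRCm38.p6) and matched 33 of 42 genes.

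Alternatives were the intensity filter, quantile normalization, equal array medians, a pseudocount of 16, no trend, array weights, fitting only the groups compared, replicate numbers as a block, and leaving out each array.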

Additional observations from a re-analysis of the deposited data

Results flagged for a closer look

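For 10 of the 12 collagen genes given by array, the 24 h and 4 h responses differed in at least 1 genotype when tested directly (limma, Benjamini-Hochberg over all probe sets). The 12 were picked by calls that used the same arrays, so the count of 10 lends no support. Among all probe sets 33.3%, 29.1% and 32.5% were called in homozygous, heterozygous and wt cells. The values are 24 h minus 4 h on the log2 scale, from 2 arrays against 2. Upward differences came first in size from Col5a3, at 1.819 in homozygous, 1.725 in heterozygous and 1.7 in wt cells. Col7a1 differed by 1.448, 1.177 and 1.307 in the same order, Col11a1 by 1.138, 1.234 and 0.9791, and Col1a1 by 0.5803, 0.4505 and 0.7416. Col5a1 differed by 0.5569 in homozygous and 0.396 in heterozygous cells, Col12a1 by 0.6119 in homozygous cells and Col3a1 by 0.4341 in wt cells. The heterozygous Col5a1, homozygous Col12a1 and wt Col3a1 calls, and the homozygous Col6a1 call given next, were lost when any 1 of their 4 arrays was left out. Downward differences were those of Col6a2, at -1.265 in homozygous, -1.352 in heterozygous and -1.158 in wt cells, of Col6a1, at -0.8411 in homozygous and -0.978 in heterozygous cells, and of Col14a1, at -0.8569 in wt cells. The 2 remaining genes, Col27a1 and Col4a5, had no such difference.

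Groups of 2 arrays were too small for a search for single arrays that stand apart.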

How the results depend on the processing

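With 2 arrays a group, the counts of called collagen probe sets depend on how the spread is estimated. For the refits counted here the share of all probe sets called is not given, so their counts are no result about collagens. Of 49 calls of the 12 named genes none changed sign under any alternative run. That lends little support, since the filter, the trend and the groups fitted do not alter a difference of group means. Nor can leaving out 1 array reverse a difference between groups that do not overlap. The calls that stayed past the threshold were 48 with quantile normalization, 47 with equal medians, 42 without the intensity trend, 39 with array weights, 35 without the filter and 30 with only the groups compared. Without the filter, counts were 5 for heterozygous cells at 4 h, 12 and 4 for homozygous cells at 4 h and 24 h, and 1 each for heterozygous and homozygous against wt untreated. Quantile normalization gave 5 for wt cells at 4 h. Array weights gave 0 and 2 for wt cells at 4 h and 24 h, 13 and 9 for heterozygous cells, 12 for homozygous cells at 24 h, and 4 and 28 for 24 h against 4 h in wt and homozygous cells. Only the groups compared gave 0, 0 and 0 for the 3 wt comparisons of treated cells and 2 for heterozygous cells at 24 h. It gave 32, 13 and 31 for homozygous cells at 4 h, at 24 h and between these times. That fit estimates the spread from the arrays of the compared groups alone. The zeros stand beside 10, 14 and 22 probe sets at an unadjusted p under 0.05 in limma fitted to all arrays (25%, 35% and 55%, against 33.3%, 23.6% and 43.8% of all probe sets). The cause of these shifts, up or down, was not tested.

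Leaving out 1 array gave 6 to 10 calls in homozygous, 1 to 5 in heterozygous and 2 to 14 in wt cells at 4 h. At 24 h it gave 2 to 3, 2 to 4 and 3 to 10, and for 24 h against 4 h 7 to 12, 6 to 8 and 7 to 18. For untreated homozygous and heterozygous against wt cells it gave 0 to 12 and 0 to 3, and for the interactions 0 to 1 at 4 h and 0 to 0 at 24 h for both mutants. The highest wt counts came without untreated replicate 2 (14 at 4 h) and untreated replicate 1 (10 at 24 h, and the 12 and 3 of the genotype comparisons).

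The labels do not say what a shared replicate number means. The 2 arrays of homozygous groups differed alike (correlation of replicate differences 0.536 to 0.606), as did heterozygous ones (0.234 to 0.435), while the untreated wt pair ran against the 4 h and 24 h wt pairs (-0.391 and -0.576). With the replicate number as a block over all genotypes, counts were 18, 9 and 3 at 4 h in homozygous, heterozygous and wt cells and 6, 4 and 6 at 24 h. Of the named genes' calls, 3 were lost under that block: Col4a5 at 4 h and Col27a1 at 24 h in homozygous cells, and Col5a1 for 24 h against 4 h in heterozygous cells. The block within each genotype also lost this Col5a1 call and that of Col4a5, with Col11a1 at 4 h in heterozygous cells and Col14a1 for 24 h against 4 h in wt cells. With the block set within each genotype, 6 were called in wt cells at 4 h and 7 in heterozygous cells at 24 h. With the 2 untreated wt arrays exchanged in that block, a setting chosen after seeing the data, counts were 17 and 15 for wt cells at 4 h and 24 h, 22 and 10 for heterozygous cells, and 29, 24 and 27 for 24 h against 4 h in wt, heterozygous and homozygous cells.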
